A study of Homo sapiens with 16 samples.

Results

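The extracellular matrix and integrin genes described here are 47 members of the count table, taken by gene symbol: fibronectin, 16 collagen chains, 7 laminin chains, other matrix proteins, a pair of crosslinking enzymes and 11 integrin chains. All 47 symbols were found among the 59428 genes of the table. The members were chosen with earlier results of these data known, so their shares given below describe this list and are not tests of it. Their RNA was measured in OVCAR3 and UWB1.289, established lines of serous ovarian carcinoma cells that were kept for 96 h with olaparib, an inhibitor of PARP enzymes, or with its solvent DMSO. Each of the 4 groups of line and treatment held 4 replicate libraries, 16 in all. OVCAR3 has an intact BRCA1 gene, received 7.5 µM olaparib and grew in RPMI1640 with serum and bovine insulin. UWB1.289 has a BRCA1 mutation, received 3.5 µM and grew in a mixture of MEGM and RPMI1640 with less serum. Line, BRCA1 status, dose and medium therefore cannot be told apart, and each BRCA1 status is represented by 1 line.

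The extracellular matrix is the protein network that cells secrete around themselves. Carcinoma cells sit on a basement membrane, a sheet of collagen IV and laminin networks joined by nidogen and perlecan, while the interstitial matrix behind it is built from fibrillar collagens, fibronectin and proteoglycans and is largely made by fibroblasts. Integrins are receptors made of an alpha and a beta chain that bind these ligands and tie them to the cytoskeleton. In ovarian carcinoma the matrix and its integrins are known for their part in the attachment of tumor cells to the peritoneum.

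Total counts per library ranged from 5599571 to 7730228 with a median of 6413979.5. Scaled to a common library total (CPM), the members together took 2012 to 2099 CPM in the OVCAR3 DMSO libraries and 2127 to 2338 with olaparib, and 4211 to 4815 in the UWB1.289 DMSO libraries and 4779.7 to 4961 with olaparib. All 7 epithelial markers examined were counted in every group, and their sum was 4318 to 4490.0 CPM in OVCAR3 with DMSO against 2589.9 to 2881 with olaparib. There KRT8 (log2 -1.05, SE 0.102, adjusted p = 2.26e-07) and KRT18 (log2 -1.02, SE 0.0722, adjusted p = 2.72e-09) were called lower, beside 2.33% of all genes tested. By adjusted p alone 5 of the 7 passed as lower and 1 as higher, beside 16% and 15.5% of all genes tested. In UWB1.289 the epithelial sum was 7949 to 8567 with DMSO and 6221 to 7674 with olaparib. WT1, a marker of serous carcinoma, had no count in the UWB1.289 DMSO libraries and 728 to 824 normalized counts in those of OVCAR3, while PAX8 was counted in all libraries and the 6 Muellerian carcinoma markers summed to 470 to 1154 CPM. The 7 fibroblast markers summed to 0.574 to 1.16 CPM in OVCAR3 with DMSO, 1.42 to 3.56 with olaparib, 8.44 to 16.9 in UWB1.289 with DMSO and 12.9 to 26.5 with olaparib. PDGFRA, PDGFRB, DCN and FAP were at 0 in the UWB1.289 DMSO libraries, and THY1, ACTA2 and POSTN were counted there. Only DCN was at 0 in the UWB1.289 olaparib libraries. The 2 fibroblast markers that could be tested between the untreated lines were both called higher in UWB1.289, beside 18.7% of all genes tested. The 4 endothelial markers summed to 0.579 to 3.15 CPM in OVCAR3 and 5.88 to 11.5 in UWB1.289, and the 5 leukocyte markers to 1.82 to 4.04 in OVCAR3, 8.45 to 12.1 in UWB1.289 with DMSO and 16.7 to 22.3 with olaparib. The part of these markers' cell types in the results below was not tested, and in RNA from whole cultures fewer cells with a transcript and less of it per cell cannot be told apart.

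Values below are normalized counts, that is counts scaled to the mean effective library size of the 16 libraries, each group is given as mean ± SD (n = 4), and "called" means an adjusted p below 0.1 in edgeR's quasi-likelihood test with Benjamini-Hochberg adjustment over all genes tested, together with a change beyond 2-fold (a log2 value beyond 1 in size) and a mean of over 10 normalized counts in the libraries fitted. Fold changes are log2 values with their standard error (SE). The libraries count tags at the 3′ ends of transcripts, so levels are compared within a gene and not between genes.

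In OVCAR3 more of the members were higher with olaparib than lower. The list was chosen with earlier results of these data known, so the shares here are descriptions only. Of the 47 members, 39 passed the filter on low counts, and 10 of these 39 (25.6%) were called, beside 5.23% of all 13031 genes tested. All 10 were higher with olaparib (2.90% of all genes tested were called higher and 2.33% lower): FN1, THBS1, TNC, COL7A1, LAMA3, LAMB3, NID1, ITGA2, ITGA5 and ITGB3. By adjusted p alone 28 members passed, 21 higher and 7 lower, a share of 71.8% beside 31.5% of all genes (15.5% higher and 16% lower). The libraries of the groups did not overlap, with olaparib higher, for 19 members and lower for 4, beside 12.4% and 13.3% of all genes tested. The median log2 fold change of the 39 was 0.57 and that of all genes tested -0.01.

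In UWB1.289 2 of the 40 members tested were called with olaparib (5%, beside 2.21% of all 12748 genes tested). THBS1 rose (1.93% of all genes were called higher) and COL1A2 fell (0.282% were called lower). By adjusted p alone 16 members passed, 10 higher and 6 lower, or 40.0% beside 13.9% of all genes tested (7.77% and 6.10%). The olaparib libraries lay without overlap above those with DMSO for 9 members and below for 5, beside 7.73% and 6.97% of all genes tested. With the replicate number as a block, for which the numbers met the pairing criterion in this line, 20 members passed, 12 higher and 8 lower, the added ones being FN1 (log2 0.20, adjusted p = 0.0484), COL6A2 (log2 0.53, adjusted p = 0.0220), COL8A1 (log2 -0.21, adjusted p = 0.0430) and LAMA4 (log2 -0.46, adjusted p = 0.0235). The median log2 fold change of the 40 was 0.13, and that of all genes tested was -0.00.

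More members differed between the untreated lines than with olaparib. Of 42 members tested, 24 (57.1%) were called between the DMSO libraries of UWB1.289 and OVCAR3, 16 higher and 8 lower in UWB1.289. That share stands beside 38.4% of all 13366 genes tested, with 18.7% higher and 19.7% lower. Whether olaparib acted differently in the lines was tested as an interaction over the 16 libraries, which was called for 7 of 42 members (16.7%, beside 3.66% of all 14243 genes tested). In all 7 the effect in UWB1.289 minus that in OVCAR3 was negative (1.66% of all genes were called in that direction and 2% in the other): ITGB3, FN1, NID1, ITGA5, COL7A1, THBS1 and ITGA3. By adjusted p alone 11 members passed, 1 with a positive and 10 with a negative difference, beside 10.9% of all genes (5.09% and 5.83%). Because these comparisons share libraries, each is given with its own values and no overlap between them was tested.

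**Figure D1:**
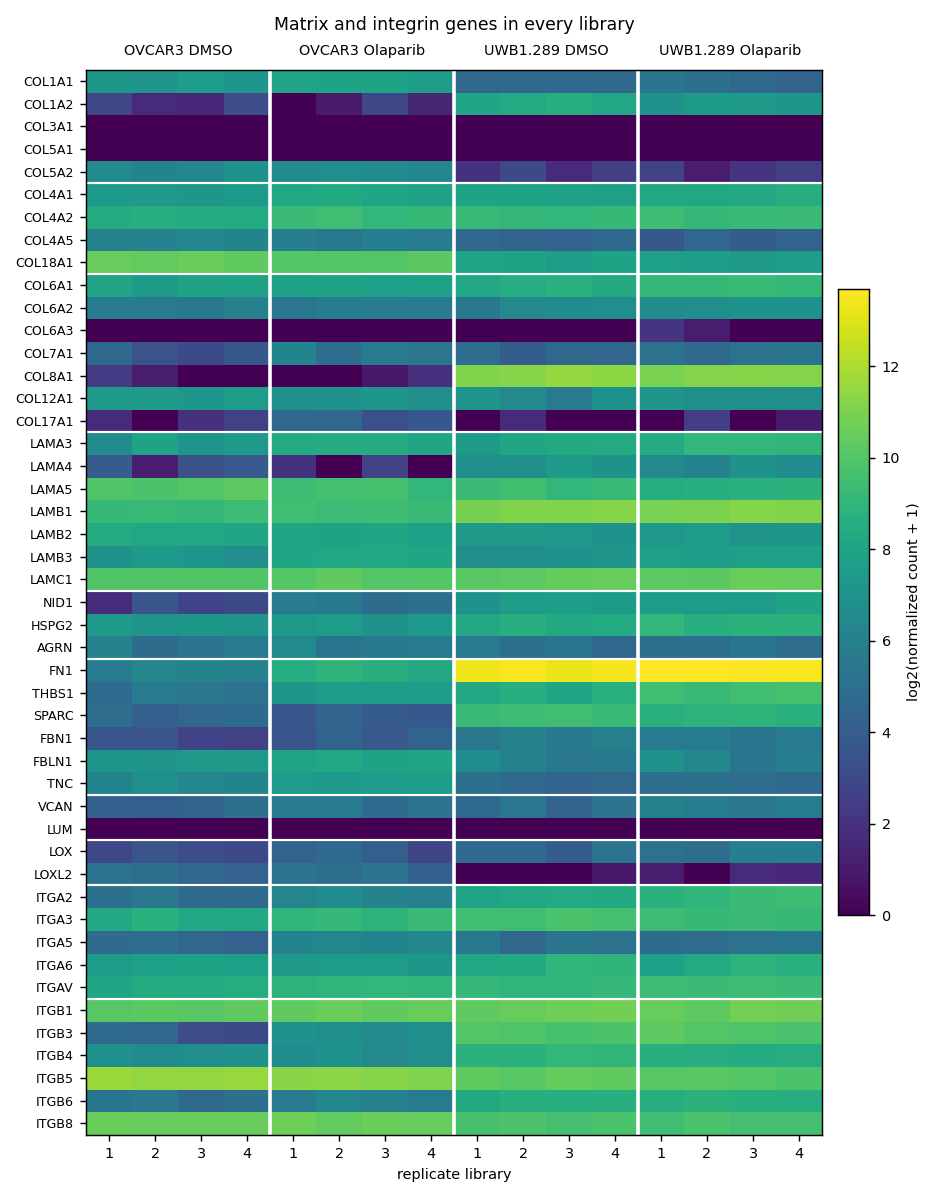
Each row is 1 of the 47 members, ordered by role, and each column 1 of the 16 libraries; color gives log2 of the normalized count plus 1. FN1, COL8A1, ITGB3 and SPARC were higher in every UWB1.289 library than in every OVCAR3 library, while COL3A1, COL5A1 and LUM were at 0 throughout.

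Of the 6 matrix glycoproteins, 5 passed the adjusted p as higher with olaparib in OVCAR3 and 3 of these were called, while in UWB1.289 THBS1 passed as higher and SPARC as lower. Over all genes tested 15.5% passed as higher and 2.90% were called higher in OVCAR3, and 7.77% passed as higher and 6.10% as lower in UWB1.289. FN1 encodes fibronectin, the glycoprotein that cells assemble into fibrils and that links collagens to integrins. It lies on chromosome 2 (GRCh38, 215360440 to 215436073, minus strand; ENSG00000115414). OVCAR3 held 49.3, 72.6, 71.3 and 66.0 normalized counts in the DMSO libraries (64.8 ± 10.7) and 356, 475, 401 and 306 in the olaparib libraries (385 ± 72.2). UWB1.289 held 10271, 11991, 10028 and 11789 with DMSO (11019.5 ± 1013) and 13186, 12755, 12422 and 11942 with olaparib (12576 ± 526). The OVCAR3 groups did not overlap, the UWB1.289 groups did, and every UWB1.289 library lay above every OVCAR3 library. FN1 rose 5.92-fold with olaparib in OVCAR3 (log2 2.57, SE 0.151, adjusted p = 3.11e-10), while in UWB1.289 the value was log2 0.19 (SE 0.0764, adjusted p = 0.125, and 0.0484 with the replicate block), and the effects differed by -2.37 on the log2 scale (SE 0.160, adjusted p = 2.33e-11). Without drug FN1 was 169-fold higher in UWB1.289 (log2 7.40, SE 0.105, adjusted p = 2.31e-30). The mean of OVCAR3 was 0.588% of the UWB1.289 DMSO mean before treatment and 3.49% with olaparib, so OVCAR3 remained below the other line.

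The FN1 promoter window is shown because FN1 had the largest rise among the matrix glycoproteins. It spans 250 bases before to 50 after the gene start (RefSeq, GRCh38.p14, chr2:215436019-215436318, minus strand), and capitals mark the palindromic cyclic AMP response element letters TGACGTCA, which start 183 bases before the gene start (position -183):
FN1 promoter: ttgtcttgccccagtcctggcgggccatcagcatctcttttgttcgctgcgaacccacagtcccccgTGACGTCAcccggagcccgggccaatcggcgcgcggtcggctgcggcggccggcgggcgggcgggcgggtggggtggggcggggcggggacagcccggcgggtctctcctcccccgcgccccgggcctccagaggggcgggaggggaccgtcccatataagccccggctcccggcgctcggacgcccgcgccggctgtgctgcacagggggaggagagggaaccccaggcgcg
The 35 members with a window had 46 windows, some of them more than 1 each. These letters were in 1 of the 46 and in 1.85% of all 35116 windows. The other letters searched, on both strands of each window, were TGAGTCA of AP-1, described with the laminins, GGAATG of TEAD factors and GGGCGG of SP1. GGAATG was in 6 of the 46 member windows and 14.03% of all windows. GGGCGG was in 34 of the 46, from 27 members, and in 44.95% of all windows. None contains another, and a match is a description of the sequence that was not tied to the counts.

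THBS1, thrombospondin 1, a matricellular protein that binds cell receptors and latent TGF-beta, was called with olaparib in both lines, in UWB1.289 only just. OVCAR3 held 26.8, 46.5, 42.2 and 35.3 normalized counts with DMSO (37.7 ± 8.62) and 151, 183, 196 and 191 with olaparib (180.2 ± 20.1). UWB1.289 had 307, 395, 275 and 411 with DMSO (347 ± 66.1) and 721, 629, 716 and 839 with olaparib (726 ± 86.5). Neither line's groups overlapped. The rise was 4.79-fold in OVCAR3 (log2 2.26, SE 0.167, adjusted p = 5.52e-09) and 2.10-fold in UWB1.289 (log2 1.07, SE 0.118, adjusted p = 1.21e-06), and it was larger in OVCAR3 (difference -1.19, SE 0.211, adjusted p = 3.30e-04). In UWB1.289 the fold fell just under 2 without DMSO replicate 3 (log2 0.97) or without olaparib replicate 4 (log2 0.99), with adjusted p of 4.60e-06 and 1.82e-05. Untreated UWB1.289 held 9.17-fold more THBS1 than untreated OVCAR3 (log2 3.20, SE 0.161, adjusted p = 3.13e-17).

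TNC, tenascin C, a hexameric glycoprotein of remodeled tissue, was lower in UWB1.289 than in OVCAR3. Its normalized counts were 70.7, 110.1, 80.7 and 71.6 in OVCAR3 with DMSO (83.3 ± 18.4) and 191, 169.9, 190.1 and 196 with olaparib (187 ± 11.6), without overlap. UWB1.289 libraries held 32.2, 24.9, 20.7 and 24.0 with DMSO and 31.0, 32.3, 30.2 and 24.8 with olaparib, and these groups overlapped. TNC rose in OVCAR3 (log2 1.18, SE 0.145, adjusted p = 5.27e-06), did not pass in UWB1.289 (log2 0.21, SE 0.252, adjusted p = 0.662), and was 3.25-fold lower in untreated UWB1.289 (log2 -1.70, SE 0.216, adjusted p = 3.13e-08). The difference of the effects passed the adjusted p but not the 2-fold limit (log2 -0.96, SE 0.264, adjusted p = 0.0209).

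SPARC, a collagen-binding protein that modulates cell attachment, stood higher in UWB1.289 with and without olaparib. It held 28.9, 17, 21.6 and 27.0 normalized counts in OVCAR3 with DMSO (23.6 ± 5.39) and 604, 681, 714 and 626 in UWB1.289 with DMSO (656 ± 50.3), with no overlap and a 27.4-fold difference (log2 4.78, SE 0.133, adjusted p = 1.53e-23). With olaparib it was 15.1 ± 4.24 in OVCAR3 and 439 ± 30.1 in UWB1.289. SPARC fell in UWB1.289 (log2 -0.58, SE 0.0909, adjusted p = 1.55e-04), with groups that did not overlap, and in OVCAR3, at fewer counts, it did not pass the test (log2 -0.64, SE 0.308, adjusted p = 0.138). FBN1, fibrillin 1 of the microfibrils, was higher in untreated UWB1.289 (53.2 ± 11.1 against 8.59 ± 3.45, log2 2.65, SE 0.305, adjusted p = 4.75e-09). In OVCAR3 it had 11.8, 11.3, 5.63 and 5.58 with DMSO and 11.1, 20.2, 12.9 and 19.5 with olaparib, which overlapped, and its rise (log2 0.92, SE 0.384, adjusted p = 0.0899) passed the threshold narrowly and was lost with DESeq2 (adjusted p = 0.195) or without DMSO replicate 3 or 4 or olaparib replicate 2 or 4 (up to 0.232). FBLN1, fibulin 1, which binds fibronectin and elastic fibers, rose in OVCAR3 from 152 ± 12.2 to 256 ± 21.9 (log2 0.76, SE 0.112, adjusted p = 4.44e-05) without overlap. In UWB1.289 its 4 DMSO libraries ranged from 43.4 to 98.7 and its olaparib libraries from 38.5 to 127 (log2 0.27, SE 0.288, adjusted p = 0.627), and it was lower there than in OVCAR3 without drug (log2 -1.28, SE 0.185, adjusted p = 3.30e-07).

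VCAN, versican, the large hyaluronan-binding proteoglycan, rose by the same log2 value in both lines. It was 21.6 ± 7.59 with DMSO and 39.3 ± 10.1 with olaparib in OVCAR3 (log2 0.84, SE 0.280, adjusted p = 0.0329) and 30.3 ± 9.94 and 54.2 ± 8.01 in UWB1.289 (log2 0.84, SE 0.238, adjusted p = 0.0277), and the interval of the difference was -0.59 to 0.58. The OVCAR3 pass was lost without olaparib replicate 2 (adjusted p = 0.102). LUM, lumican, the small proteoglycan of fibroblast matrix, had no count in any library.

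Of the crosslinking enzymes, LOX, lysyl oxidase, which joins collagen and elastin chains, had 6, 10, 9 and 8 counts in the OVCAR3 DMSO libraries and 19, 24, 18 and 7 with olaparib, and 27, 25, 15 and 42 in UWB1.289 with DMSO and 31, 26, 54 and 59 with olaparib. The groups overlapped in both lines. Its adjusted p was just under the threshold in OVCAR3 (log2 0.96, SE 0.411, adjusted p = 0.0954) and in UWB1.289 (log2 0.76, SE 0.279, adjusted p = 0.0946), and both passes were lost with DESeq2 (adjusted p = 0.182 and 0.149). Leaving out any OVCAR3 library except DMSO replicate 2 or olaparib replicate 4, or any UWB1.289 library except DMSO replicate 4 or olaparib replicates 1 and 2, lost them too, with adjusted p up to 0.287 and 0.290. It was higher in untreated UWB1.289 (log2 1.64, SE 0.352, adjusted p = 1.19e-04), and the gene overlaps SRFBP1 on the opposite strand, which had 3405 counts over the 16 libraries against 380 for LOX. LOXL2, a relative that acts on collagen IV, had 32, 26, 23 and 20 counts in OVCAR3 with DMSO and 1 count over the 4 UWB1.289 DMSO libraries. Its pooled ratio, UWB1.289 to OVCAR3, was 0.00959 (95% interval 0.000240 to 0.0547, which like all intervals of pooled counts here covers counting error only). It was called lower in UWB1.289 (adjusted p = 8.46e-10), and in OVCAR3 it did not pass with olaparib (log2 0.22, SE 0.286, adjusted p = 0.626). The LOXL2 gene overlaps ENTPD4 on the same strand, which had 1611 counts over the 16 libraries against 232 for LOXL2.

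The laminins, heterotrimers of an alpha, a beta and a gamma chain, split by chain: of 6 tested in OVCAR3, 2 were called higher with olaparib, 2 passed as lower and 2 did not pass (over all genes tested 2.90% were called higher and 16% passed as lower). LAMA3 and LAMB3 are chains of the laminin that anchors epithelia. LAMA3 held 95.4, 234, 135 and 163 normalized counts in OVCAR3 with DMSO (157 ± 58.3) and 324, 339, 341 and 271 with olaparib (319 ± 32.8). In UWB1.289 the values were 174, 277, 314 and 328 with DMSO (273 ± 69.6) and 344, 533, 537 and 491 with olaparib (476 ± 90.7). The groups did not overlap in either line. LAMA3 rose in OVCAR3 (log2 1.03, SE 0.175, adjusted p = 1.89e-04) and, under 2-fold, in UWB1.289 (log2 0.80, SE 0.157, adjusted p = 0.00163). The OVCAR3 fold was close to the limit, at log2 0.86 without DMSO replicate 1 and 0.97 without DMSO replicate 3, with adjusted p of 6.87e-04 and 0.00198.

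LAMB3 held 124, 160.0, 144 and 107 normalized counts in OVCAR3 with DMSO (134 ± 23.1) and 268, 296, 286 and 266 with olaparib (279 ± 14.8). In UWB1.289 it held 106, 105, 128 and 139 with DMSO and 217, 206, 209 and 230.4 with olaparib. In both lines every olaparib library lay above the DMSO libraries. The rise was 2.10-fold in OVCAR3 (log2 1.07, SE 0.123, adjusted p = 2.44e-06; log2 0.97 and adjusted p = 2.76e-05 without DMSO replicate 4) and 1.80-fold in UWB1.289 (log2 0.85, SE 0.123, adjusted p = 5.65e-05). The differences of effect between the lines were -0.23 for LAMA3 (interval -0.74 to 0.28) and -0.22 for LAMB3 (interval -0.56 to 0.12), and neither passed the test.

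The windows at the LAMA3 and LAMB3 starts given by RefSeq are shown because these partner chains rose together. The LAMA3 window (chr18:23872770-23873069, plus strand) lies inside the longer annotated gene, and the LAMB3 window (chr1:209651325-209651624, minus strand) is 1 of 3 given for that gene. Capitals mark the AP-1 letters TGAGTCA on either strand (TGACTCA on the printed strand), which begin at positions -125 and -69 in LAMA3 and -67 in LAMB3, counted from the gene start:
LAMA3 promoter: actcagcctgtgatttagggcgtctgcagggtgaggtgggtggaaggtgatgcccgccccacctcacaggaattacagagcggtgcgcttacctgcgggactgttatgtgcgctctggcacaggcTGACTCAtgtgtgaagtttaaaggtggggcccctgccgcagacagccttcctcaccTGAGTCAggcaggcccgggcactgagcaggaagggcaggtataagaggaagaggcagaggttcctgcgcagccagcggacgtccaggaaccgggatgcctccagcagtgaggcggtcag
LAMB3 promoter: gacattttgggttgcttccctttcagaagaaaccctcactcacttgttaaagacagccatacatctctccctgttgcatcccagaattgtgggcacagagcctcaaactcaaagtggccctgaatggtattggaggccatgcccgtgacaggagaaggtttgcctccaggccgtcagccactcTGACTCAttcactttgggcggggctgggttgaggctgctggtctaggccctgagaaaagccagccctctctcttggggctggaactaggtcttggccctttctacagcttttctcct
Of the 46 windows of the 35 members with a window, 3 held these letters (1 each of ITGA5, LAMA3 and LAMB3), and 4.95% of all windows did. The motifs were chosen with the counts known, and 12 members without a window, among them ITGB3, COL1A2, COL8A1 and ITGA3, were not examined.

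The other laminin chains did not share that rise. LAMA5, the alpha chain of most adult basement membranes, fell in both lines, from 1044 ± 142 to 714 ± 133 in OVCAR3 (log2 -0.55, SE 0.117, adjusted p = 0.00182) and from 633 ± 94.5 to 405 ± 33.6 in UWB1.289 (log2 -0.64, SE 0.106, adjusted p = 2.74e-04), without overlap in either line. Its gene overlaps ADRM1 on the opposite strand, with 20902 counts against 11249 for LAMA5, and whether the counting used strand is not given in the sources used here. COL18A1 overlaps SLC19A1 (1768 counts) in the same way, LAMB1 overlaps DLD (5606), ITGB4 overlaps GALK1 (1440) and ITGB8 overlaps ITGB8-AS1 (846). LAMB1, a beta chain of the same networks, was 3.60-fold higher in untreated UWB1.289 (2157 ± 193 against 598 ± 50.1, log2 1.85, SE 0.0802, adjusted p = 8.36e-19) and did not pass with olaparib (0.17 and -0.02 on the log2 scale in OVCAR3 and UWB1.289, adjusted p = 0.139 and 0.926). LAMC1, the common gamma chain, did not pass in either line (0.17 and 0.05), and LAMB2 was slightly lower in OVCAR3 with olaparib (log2 -0.27, SE 0.107, adjusted p = 0.0705), a pass lost with DESeq2 (adjusted p = 0.116) or without DMSO replicate 1 or 3 or olaparib replicate 2 or 4 (up to 0.221).

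LAMA4, the alpha chain of vessel and muscle basement membranes, was called between the lines. It had 14, 1, 10 and 14 counts in OVCAR3 with DMSO and 111, 103, 169 and 150 in UWB1.289 with DMSO, and was higher in UWB1.289 (log2 3.71, SE 0.279, adjusted p = 4.69e-13). In OVCAR3 the olaparib libraries held 3, 0, 6 and 0 counts, so the group sums were 39 and 9, a pooled ratio of 0.218 (95% counting interval 0.0928 to 0.457), and the gene did not pass the low-count filter there. Without that filter its value was log2 -2.12 (adjusted p = 0.0142) at an average normalized count of 5.98, under the limit of 10. In UWB1.289 it was 95.3 ± 27.2 with olaparib against 131 ± 30.7 (log2 -0.45, SE 0.184, adjusted p = 0.140; the value under the block is given above). Its difference of effects was log2 1.68 (adjusted p = 0.165), and LAMA4 was called in the interaction, as positive, with DESeq2, without the low-count filter, and without DMSO replicate 2 or olaparib replicate 3 of OVCAR3.

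NID1, nidogen 1, the link between the laminin and collagen IV networks, was low in OVCAR3 and rose from there. Its normalized counts were 2.14, 11.3, 5.63 and 7.44 with DMSO (6.64 ± 3.83) and 52.4, 44.5, 27.7 and 31.1 with olaparib (38.9 ± 11.5). In UWB1.289 they were 131, 188, 201 and 177 with DMSO (174 ± 30.4) and 192, 190.3, 179 and 245 with olaparib (202 ± 29.8). The OVCAR3 groups were apart by a wide gap and the UWB1.289 groups overlapped. The rise in OVCAR3 was 5.81-fold (log2 2.54, SE 0.373, adjusted p = 4.07e-05), the value in UWB1.289 did not pass (log2 0.22, SE 0.138, adjusted p = 0.375), and the effects differed (log2 -2.32, SE 0.369, adjusted p = 7.84e-05). OVCAR3 stood at 3.81% of the UWB1.289 DMSO mean before treatment (log2 4.70, SE 0.253, adjusted p = 1.58e-16) and at 22.3% with olaparib.

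HSPG2, which encodes perlecan, the heparan sulfate proteoglycan of basement membranes, rose in UWB1.289 from 340.0 ± 36.5 to 454 ± 59.3 (log2 0.42, SE 0.107, adjusted p = 0.0140) without overlap and did not pass in OVCAR3 (log2 0.10, SE 0.130, adjusted p = 0.616). It was higher in untreated UWB1.289 (log2 1.19, SE 0.109, adjusted p = 4.43e-11). AGRN, agrin, passed in none of the 4 comparisons, with 44.9 ± 17.2 and 56.3 ± 23.9 in OVCAR3 and 35.4 ± 10.4 and 32.3 ± 4.88 in UWB1.289.

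**Figure D2:**
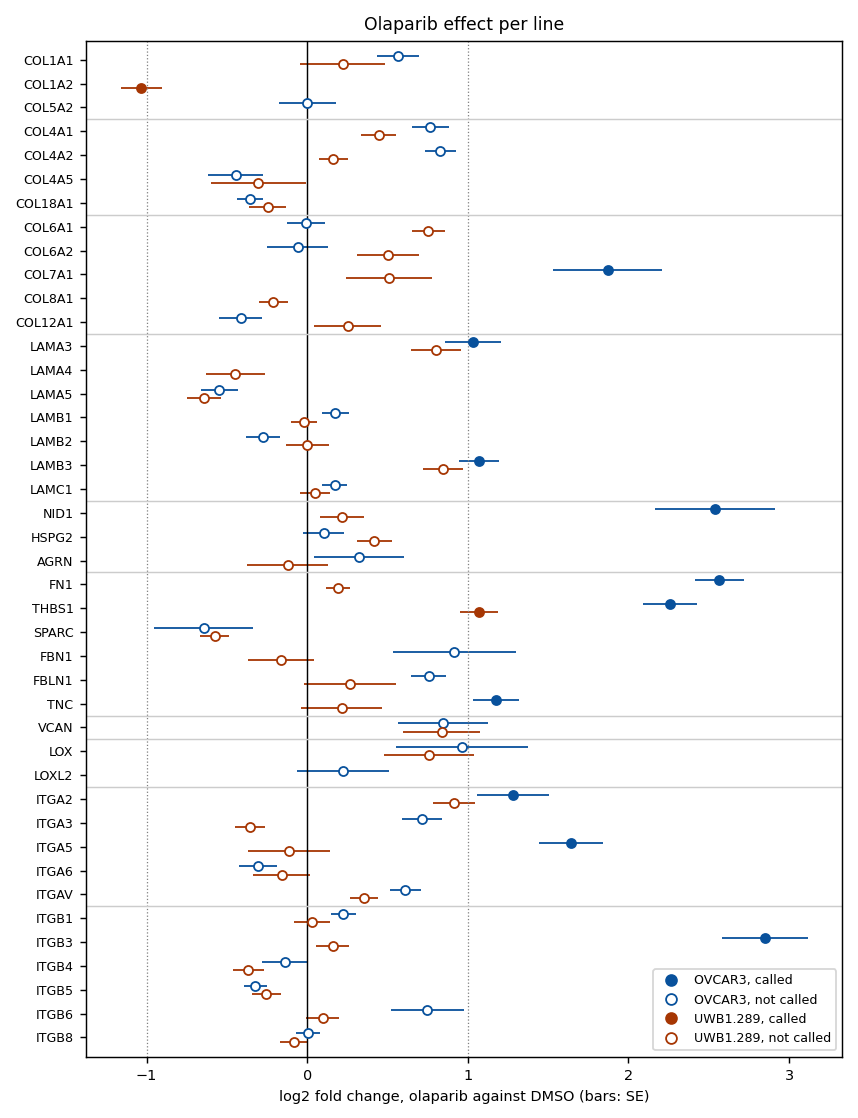
The log2 fold change with olaparib (horizontal axis, bars are 1 SE) for each tested member in OVCAR3 (blue) and UWB1.289 (brown), ordered by role; filled points were called and dotted lines mark a 2-fold change. The 10 called members of OVCAR3 lie between 1.03 and 2.85, and in UWB1.289 only THBS1 at 1.07 and COL1A2 at -1.03 are filled.

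The collagen IV chains COL4A1 and COL4A2, which form the main network of basement membranes, are neighbors that share a promoter on chromosome 13. Of the 4 collagen chains of basement membranes, these 2 passed as higher with olaparib in OVCAR3, and COL4A5 and COL18A1 as lower, beside 15.5% and 16% of all genes tested. COL4A1 rose in OVCAR3 from 162 ± 10.9 to 275 ± 37.4 (log2 0.77, SE 0.118, adjusted p = 6.38e-05) and in UWB1.289 from 232 ± 12.4 to 315 ± 39.0 (log2 0.45, SE 0.109, adjusted p = 0.0101), without overlap in either line. COL4A2 rose in OVCAR3 from 344 ± 14.7 to 609 ± 82.8 (log2 0.83, SE 0.0971, adjusted p = 2.91e-06), also without overlap. In UWB1.289 it was 562 ± 27.6 with DMSO and 629 ± 57.8 with olaparib and did not pass (log2 0.16, SE 0.0886, adjusted p = 0.285), and for COL4A2 the effects differed between the lines (log2 -0.66, SE 0.133, adjusted p = 0.00139), while for COL4A1 the difference did not pass (log2 -0.32, adjusted p = 0.249). Both chains were modestly higher in untreated UWB1.289 (0.51 and 0.71 on the log2 scale, adjusted p = 1.16e-04 and 7.20e-09).

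The COL4A2 window is shown because the partner genes face each other across it. It lies at chr13:110307034-110307333 (RefSeq, GRCh38.p14, plus strand), the starts of COL4A1 and COL4A2 are 127 bases apart on opposite strands, and capitals mark the 226 bases that the window shares with that of COL4A1, of which 76.5% are G or C:
COL4A2 promoter: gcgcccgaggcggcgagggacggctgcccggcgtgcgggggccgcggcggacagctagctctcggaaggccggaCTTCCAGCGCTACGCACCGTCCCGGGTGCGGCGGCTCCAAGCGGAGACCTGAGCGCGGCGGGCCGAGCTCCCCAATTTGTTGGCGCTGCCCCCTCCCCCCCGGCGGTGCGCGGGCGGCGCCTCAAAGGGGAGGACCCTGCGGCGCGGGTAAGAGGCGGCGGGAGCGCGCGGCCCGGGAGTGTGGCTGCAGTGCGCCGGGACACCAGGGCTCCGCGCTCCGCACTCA
The annotated gene bodies also overlap at this end, while the 3′ tags come from the far ends of both genes.

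COL4A5, a chain of specialized basement membranes, held 69.7, 65.8, 78.8 and 70.6 normalized counts in OVCAR3 with DMSO (71.2 ± 5.48) and 22.5, 20.5, 18.6 and 24.8 in UWB1.289 with DMSO (21.6 ± 2.65). The lines did not overlap, and it was called lower in UWB1.289 (log2 -1.71, SE 0.213, adjusted p = 2.08e-08). It was also slightly lower with olaparib in OVCAR3 (log2 -0.45, SE 0.170, adjusted p = 0.0638), a pass lost with DESeq2 (adjusted p = 0.140) or without DMSO replicate 3 or 4 or olaparib replicate 2 or 4 (up to 0.162). COL18A1, whose C-terminal fragment is endostatin, was among the members with the largest differences toward OVCAR3. It held 1454, 1329.8, 1506 and 1309 normalized counts in OVCAR3 with DMSO and 255, 232, 202 and 233 in UWB1.289 with DMSO, a 6.08-fold difference without overlap (log2 -2.60, SE 0.0870, adjusted p = 1.27e-21). With olaparib it fell in OVCAR3 to 1089.9 ± 89.8 from 1399.8 ± 95.7 (log2 -0.36, SE 0.0796, adjusted p = 0.00243) and did not pass in UWB1.289 (log2 -0.25, SE 0.117, adjusted p = 0.210).

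The fibrillar collagens divided between the lines by chain. Collagen I is a trimer of COL1A1 and COL1A2 chains, and the lines differed in opposite directions for them. COL1A1 held 153, 137, 197 and 145 normalized counts in OVCAR3 with DMSO and 23.4, 24.9, 24.8 and 25.7 in UWB1.289 with DMSO, 6.40-fold lower in UWB1.289 (log2 -2.68, SE 0.179, adjusted p = 2.88e-14). COL1A2 held 6.43, 2.27, 1.88 and 8.37 in OVCAR3 with DMSO and 261, 333, 370.3 and 293 in UWB1.289 with DMSO, 63.6-fold higher in UWB1.289 (log2 5.99, SE 0.232, adjusted p = 5.04e-20). In neither gene did the lines overlap. COL5A2, a regulatory chain of the same fibrils, followed COL1A1, with 95.4, 71.5, 81.7 and 132 in OVCAR3 and 2.93, 7.57, 2.07 and 5.13 in UWB1.289 (log2 -4.40, SE 0.315, adjusted p = 1.47e-13).

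With olaparib COL1A2 fell in UWB1.289, where the olaparib libraries held 129.5, 173, 167 and 143 normalized counts (153 ± 20.5) against 314 ± 47.7 with DMSO, and the groups did not overlap (2.05-fold, log2 -1.03, SE 0.128, adjusted p = 6.24e-06). This change was also near the 2-fold limit, at log2 -0.95 without DMSO replicate 3 and -0.96 without olaparib replicate 1 (adjusted p = 3.32e-05 and 2.33e-05), and without DMSO replicate 3 no member was called in UWB1.289. In OVCAR3 COL1A2 had 6, 2, 2 and 9 counts with DMSO and 0, 1, 7 and 2 with olaparib, too few for the test, with a pooled ratio of 0.497 (95% counting interval 0.206 to 1.12). COL1A1 rose in OVCAR3 from 158 ± 26.8 to 234 ± 25.1 (log2 0.57, SE 0.129, adjusted p = 0.00296), under 2-fold, and did not pass in UWB1.289 (log2 0.22, SE 0.265, adjusted p = 0.671). COL5A2 was 95.6 ± 10.9 in OVCAR3 with olaparib against 95.1 ± 26.5 (log2 0.00, interval -0.35 to 0.35). COL3A1 and COL5A1, which are abundant in fibroblasts, had no count in any library. Whether these zeros and that of LUM reflect the cells or the counting cannot be told from the table. As far as counting error goes, a count of 0 over the 4 libraries of a group allowed a level of at most 0.111 to 0.123 CPM.

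Among the other collagens, COL8A1, a short-chain collagen of vessel walls and corneal membranes, showed the largest difference between the lines. It held 4, 1, 0 and 0 counts in OVCAR3 with DMSO and 2270, 2211, 2877 and 3126 in UWB1.289 with DMSO, so the pooled ratio of 10484 to 5 counts was 2031 after scaling (95% counting interval 870.0 to 6256; adjusted p = 4.09e-27). With olaparib UWB1.289 held 2211 ± 169 against 2565 ± 333 (log2 -0.21, SE 0.0902, adjusted p = 0.155, and 0.0430 with the replicate block), and OVCAR3 held 4 counts in all.

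COL7A1, the anchoring fibril collagen that ties the epithelial basement membrane to the stroma, was called in OVCAR3. Its normalized counts there were 22.5, 10.2, 7.51 and 12.1 with DMSO (13.1 ± 6.56) and 71.5, 28.3, 49.8 and 40.9 with olaparib (47.6 ± 18.2). UWB1.289 held 30.3, 15.1, 23.8 and 22.2 with DMSO and 33.2, 24.2, 34.3 and 38.7 with olaparib. The OVCAR3 groups did not overlap although their libraries spread widely, and those of UWB1.289 did. COL7A1 rose 3.66-fold in OVCAR3 (log2 1.87, SE 0.338, adjusted p = 3.62e-04) and did not pass in UWB1.289 (log2 0.51, SE 0.268, adjusted p = 0.264). The difference of the effects (log2 -1.36, SE 0.448, adjusted p = 0.0621) was the least firm of the 7, since it missed the threshold when any of 6 libraries was left out, with adjusted p up to 0.150. These were DMSO replicate 1 and olaparib replicate 2 of UWB1.289, and DMSO replicates 2, 3 and 4 and olaparib replicate 1 of OVCAR3.

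COL17A1, the transmembrane collagen of hemidesmosomes, had 2, 0, 3 and 6 counts in OVCAR3 with DMSO and 22, 22, 10 and 14 with olaparib, without overlap. It did not pass the low-count filter, and the pooled ratio of 68 to 11 counts was 5.84 (95% counting interval 3.06 to 12.2). Without the filter its value was log2 2.53 (SE 0.538, adjusted p = 6.55e-05) at an average normalized count of 9.75, just under the limit. When any 1 of the OVCAR3 DMSO libraries was left out, COL17A1 was called in OVCAR3. UWB1.289 had 2 counts with DMSO and 5 with olaparib. COL6A1, a chain of the beaded collagen VI filaments, rose in UWB1.289 from 344 ± 51.2 to 579 ± 27.0 (log2 0.76, SE 0.103, adjusted p = 2.34e-05) without overlap and did not pass in OVCAR3 (log2 -0.01, SE 0.118, adjusted p = 0.972). Its effects differed between the lines (log2 0.76, SE 0.157, adjusted p = 0.00184). In the fit as described no other member had a positive difference that passed. COL6A2, its partner, was 83.6 ± 27.4 and 118 ± 16.2 in UWB1.289 (log2 0.50, SE 0.196, adjusted p = 0.116; the value under the block is given above) and 50.9 ± 7.01 and 48.8 ± 5.72 in OVCAR3 (log2 -0.06, SE 0.190, adjusted p = 0.862), while COL6A3 had 4 counts, all in UWB1.289 with olaparib. COL12A1, a fibril-associated collagen, fell in OVCAR3 with overlapping groups (log2 -0.41, SE 0.133, adjusted p = 0.0274), a pass lost when all 16 libraries were fitted together (adjusted p = 0.105), and did not pass in UWB1.289 (log2 0.25, SE 0.210, adjusted p = 0.517).

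The integrin alpha chains choose the ligand, and all 5 passed the adjusted p with olaparib in OVCAR3, 4 as higher and ITGA6, in a pass lost under 8 of 13 alternatives, as lower (over all genes tested 31.5% passed, 15.5% as higher). ITGA5, which pairs with the beta 1 chain as the classical fibronectin receptor, held 26.8, 29.5, 21.6 and 18.6 normalized counts in OVCAR3 with DMSO (24.1 ± 4.94) and 72.5, 76.9, 70.1 and 79.1 with olaparib (74.6 ± 4.06). UWB1.289 held 45.9, 21.6, 37.2 and 33.4 with DMSO and 26.8, 28.8, 33.3 and 38.7 with olaparib. The OVCAR3 groups lay far apart and those of UWB1.289 overlapped. ITGA5 rose 3.12-fold in OVCAR3 (log2 1.64, SE 0.201, adjusted p = 5.04e-06), did not pass in UWB1.289 (log2 -0.11, SE 0.253, adjusted p = 0.844), and the effects differed (log2 -1.75, SE 0.319, adjusted p = 4.62e-04). With olaparib OVCAR3 stood at 216% of the UWB1.289 DMSO mean, after 69.8% with DMSO, where the libraries of the lines overlapped. Unlike for FN1, the OVCAR3 mean thus moved above that of untreated UWB1.289. It did so too for COL7A1 (57.2% to 208%), LAMA3 (57.4% to 117%), COL4A1, COL4A2 and VCAN.

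The ITGA5 window (chr12:54419217-54419516, minus strand) is shown beside those of LAMA3 and LAMB3 because it holds the same AP-1 letters, in capitals, beginning 6 bases before the start (position -6):
ITGA5 promoter: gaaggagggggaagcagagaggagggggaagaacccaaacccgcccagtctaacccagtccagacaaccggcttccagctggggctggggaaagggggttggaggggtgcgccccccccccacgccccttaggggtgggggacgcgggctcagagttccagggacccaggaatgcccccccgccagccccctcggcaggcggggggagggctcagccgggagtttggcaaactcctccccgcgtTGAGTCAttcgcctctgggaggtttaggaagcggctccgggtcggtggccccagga

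ITGA2, the alpha chain of a collagen and laminin receptor, held 32.1, 44.3, 24.4 and 26.0 normalized counts in OVCAR3 with DMSO (31.7 ± 9.0) and 74.5, 101, 69.2 and 60.4 with olaparib (76.3 ± 17.5). In UWB1.289 it held 255, 291, 334 and 323 with DMSO and 426, 492, 639 and 702 with olaparib. Neither line showed overlap between its groups. ITGA2 rose in OVCAR3 (log2 1.28, SE 0.224, adjusted p = 2.59e-04) and, at 1.88-fold, in UWB1.289 (log2 0.91, SE 0.133, adjusted p = 5.40e-05), and the difference of -0.37 did not pass (interval -0.88 to 0.15). Without drug it was 9.58-fold higher in UWB1.289 (log2 3.26, SE 0.159, adjusted p = 1.54e-17).

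ITGA3, the alpha chain of the main epithelial laminin receptor, moved in opposite directions. OVCAR3 held 302, 431, 283 and 306 normalized counts with DMSO (330.4 ± 67.9) and 512, 547, 463 and 635 with olaparib (539 ± 72.6). UWB1.289 held 713, 727, 897 and 794 with DMSO (783 ± 83.9) and 657, 573, 643 and 572 with olaparib (611 ± 45.0). Every olaparib library was above the DMSO libraries in OVCAR3 and below them in UWB1.289. ITGA3 rose in OVCAR3 (log2 0.72, SE 0.122, adjusted p = 2.11e-04), fell in UWB1.289 (log2 -0.35, SE 0.0915, adjusted p = 0.0154), and the effects differed (log2 -1.07, SE 0.161, adjusted p = 3.96e-05). The size of that difference was close to 2-fold and fell just short of it without DMSO replicate 3 of UWB1.289, DMSO replicate 3 of OVCAR3 or olaparib replicate 4 of OVCAR3 (log2 -0.9988, -0.9992 and -0.9810), with adjusted p of at most 2.43e-04.

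ITGAV, the alpha chain shared by receptors for vitronectin and fibronectin, rose in both lines, from 328 ± 40.0 to 501 ± 27.4 in OVCAR3 (log2 0.61, SE 0.0969, adjusted p = 9.14e-05) and from 521 ± 37.7 to 665 ± 26.2 in UWB1.289 (log2 0.35, SE 0.0860, adjusted p = 0.0100), without overlap. ITGA6, the alpha chain of hemidesmosomes, was slightly lower in OVCAR3 with overlapping groups (log2 -0.31, SE 0.120, adjusted p = 0.0709), a pass lost with DESeq2 (adjusted p = 0.125) or without DMSO replicates 2, 3 or 4 or olaparib replicates 1 or 4 (up to 0.229), and did not pass in UWB1.289 (log2 -0.16, SE 0.178, adjusted p = 0.646). All 5 alpha chains passed the adjusted p as higher in untreated UWB1.289, with ITGA2 (3.26) and ITGA3 (1.25) called. Over all genes tested between the lines 39.8% passed as higher and 18.7% were called higher. ITGA5 was nearest to the threshold (adjusted p = 0.0781). The ITGA5 pass was lost with DESeq2 (adjusted p = 0.152) or without DMSO replicate 1 or 3 of UWB1.289 or DMSO replicate 3 or 4 of OVCAR3 (up to 0.246).

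Of the 6 integrin beta chains, 3 passed as higher and 1 as lower with olaparib in OVCAR3, and in UWB1.289 ITGB4 and ITGB5 passed as lower (over all genes tested 15.5% passed as higher and 16% as lower in OVCAR3, and 6.10% as lower in UWB1.289). ITGB3, which pairs with ITGAV as the vitronectin receptor, had the largest fold change of any member in OVCAR3. The gene lies on chromosome 17 (GRCh38, 47253827 to 47313743, plus strand; ENSG00000259207). OVCAR3 held 24.6, 22.7, 8.45 and 7.44 normalized counts with DMSO (15.8 ± 9.12) and 127, 111, 92.3 and 114 with olaparib (111 ± 14.3). UWB1.289 held 1050.1, 957, 825 and 897 with DMSO (932 ± 95.2) and 1269, 1059.8, 959 and 872 with olaparib (1040.0 ± 171). The OVCAR3 groups did not overlap, those of UWB1.289 did, and every UWB1.289 library lay above every OVCAR3 library. ITGB3 rose 7.21-fold in OVCAR3 (log2 2.85, SE 0.269, adjusted p = 1.74e-07), did not pass in UWB1.289 (log2 0.16, SE 0.103, adjusted p = 0.388), and the effects differed (log2 -2.70, SE 0.269, adjusted p = 3.56e-08). Its mean in OVCAR3 was 1.70% of the UWB1.289 DMSO mean without drug (log2 5.92, SE 0.171, adjusted p = 3.50e-23) and 11.9% with olaparib.

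ITGB1, the common beta chain, rose by a small amount in OVCAR3, from 1192 ± 78.5 to 1391 ± 90.9 (log2 0.23, SE 0.0764, adjusted p = 0.0362), a pass lost when all libraries were fitted together (adjusted p = 0.121) or without DMSO replicate 1 or 3 or olaparib replicate 2 (up to 0.131), and did not pass in UWB1.289 (log2 0.03, SE 0.110, adjusted p = 0.910). ITGB6, an epithelial chain whose receptor activates latent TGF-beta, rose under 2-fold in OVCAR3 from 34.9 ± 8.23 to 58.2 ± 14.6 (log2 0.75, SE 0.229, adjusted p = 0.0215). It did not pass in UWB1.289 (log2 0.10, SE 0.102, adjusted p = 0.623), where it was 10.6-fold higher without drug (log2 3.40, SE 0.145, adjusted p = 5.63e-19). Its difference of effects had log2 -0.65 (adjusted p = 0.0763), and it missed the threshold in 10 of the 16 fits that left out 1 library, with adjusted p up to 0.204. These libraries were DMSO replicates 2, 3 and 4 and olaparib replicates 1, 3 and 4 of UWB1.289, and DMSO replicates 3 and 4 and olaparib replicates 2 and 3 of OVCAR3. ITGB4, the beta chain of hemidesmosomes, fell in UWB1.289 from 473 ± 50.6 to 366 ± 18.1 (log2 -0.37, SE 0.0967, adjusted p = 0.0175), did not pass in OVCAR3 (log2 -0.14, SE 0.142, adjusted p = 0.526), and was higher in untreated UWB1.289 (log2 2.09, SE 0.109, adjusted p = 6.62e-17). ITGB5, a vitronectin receptor chain, fell slightly in OVCAR3 (log2 -0.32, SE 0.0731, adjusted p = 0.00277) and in UWB1.289 (log2 -0.25, SE 0.0902, adjusted p = 0.0830). The latter pass was lost without DMSO replicates 1, 3 or 4 or olaparib replicates 3 or 4 (adjusted p up to 0.267). ITGB5 was the beta chain called lower in untreated UWB1.289 (1261 ± 113 against 2956 ± 178, log2 -1.23, SE 0.0734, adjusted p = 1.98e-15). ITGB8 did not pass in either line (log2 0.00, interval -0.14 to 0.15 in OVCAR3, and log2 -0.08, interval -0.25 to 0.09 in UWB1.289).

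**Figure D3:**
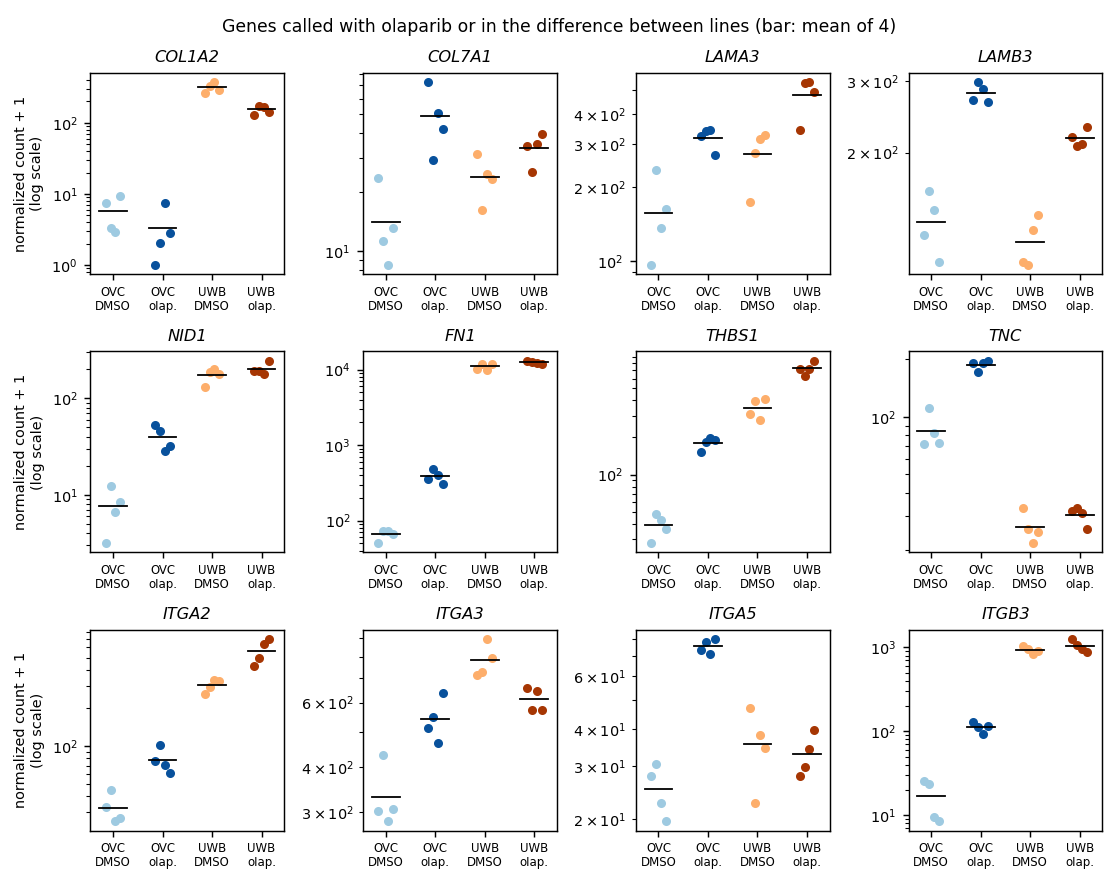
Normalized counts plus 1 on a log axis for the 12 members called with olaparib or in the difference between the lines, with 1 point per library and a bar at the mean of 4. In FN1, NID1 and ITGB3 the OVCAR3 olaparib points lie above those with DMSO and below all UWB1.289 points, while in ITGA5 they lie above all other groups.

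Between the untreated lines the members called higher in UWB1.289 were COL8A1, FN1, COL1A2, ITGB3, SPARC, NID1, LAMA4, ITGB6, ITGA2, THBS1, FBN1, ITGB4, LAMB1, LOX, ITGA3 and HSPG2. Those called lower were LOXL2, COL5A2, COL1A1, COL18A1, COL4A5, TNC, FBLN1 and ITGB5. All 6 matrix glycoproteins were called, 4 higher and 2 lower, and all 3 fibrillar collagen chains with enough counts were called, 1 higher and 2 lower. Of the 7 laminins 2 were called, both higher, a share of 28.6%, below the 38.4% of all genes called between the lines. By adjusted p alone 39 of 42 members passed, 27 higher and 12 lower (92.9%, beside 79.9% of all genes tested, 39.8% higher and 40.1% lower), and VCAN, LAMB3 and AGRN did not. The lines did not overlap for 22 members that were higher and 12 that were lower in UWB1.289, beside 34.5% and 34.9% of all genes tested.

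**Figure D4:**
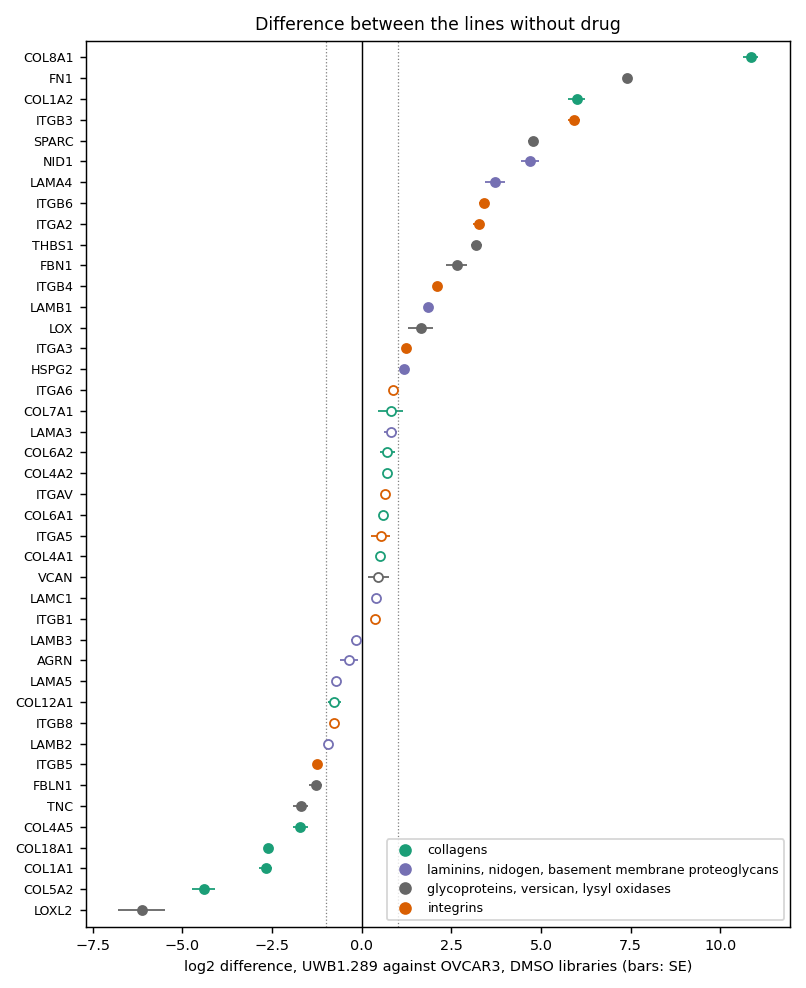
The log2 difference of UWB1.289 from OVCAR3 in the DMSO libraries (horizontal axis, bars are 1 SE) for the 42 members tested, sorted by size and colored by class; filled points were called and dotted lines mark 2-fold. The fitted values run from 10.85 for COL8A1, with 5 counts in OVCAR3, to -6.14 for LOXL2, with 1 count in UWB1.289, and both ends depend on these low counts.

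Of the 37 members tested with olaparib in both lines, 8 passed the adjusted p as higher in each (COL4A1, LAMA3, LAMB3, THBS1, VCAN, LOX, ITGA2 and ITGAV), of 21 that were higher in OVCAR3 and 10 that were higher in UWB1.289. That is 21.6% of these members, beside 3.51% of the 11670 genes tested in both lines. LAMA5 and ITGB5 passed as lower in each (5.41%, beside 2.64% of all genes), and ITGA3 was the member that passed in opposite directions (1 of 37, beside 0.985% of all genes). The lines have no control libraries in common, and no test of the size of this overlap was made. A choice of members with earlier results known can raise these shares.

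A list of 108 other matrix and adhesion genes, set by function and also with earlier results known, was read beside the members. In OVCAR3 with olaparib 6 of its 71 tested genes were called (8.45%, beside 5.23% of all genes tested) and 33 passed the adjusted p, 25 higher and 8 lower (46.5%, beside 31.5%). CD44, the hyaluronan receptor, rose from 10.5 ± 2.24 to 85.6 ± 12.4 (log2 3.03, SE 0.235, adjusted p = 1.08e-08), and TGFBI, a matrix protein that binds integrins and collagens, from 2.57 ± 1.38 to 17.3 ± 2.51 (log2 2.71, SE 0.448, adjusted p = 1.48e-04). ITGA9 (log2 1.74), ITGB2 (log2 1.40) and SDC4, a syndecan that acts with integrins at focal adhesions (log2 1.16), were called higher as well, and COL21A1 (log2 -1.18) lower. In UWB1.289 1 of 67 tested genes was called (1.49%, below the 2.21% of all genes tested), COL27A1, a fibrillar collagen of cartilage (log2 1.51, SE 0.233, adjusted p = 1.23e-04), and 16 passed the adjusted p, 14 higher and 2 lower (23.9%, beside 13.9%).

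The interaction was called for 6 of 80 tested genes of that list (7.50%, beside 3.66% of all genes tested). The effect in UWB1.289 minus that in OVCAR3 was negative for CD44 (log2 -2.67, SE 0.236, adjusted p = 3.98e-09), TGFBI (log2 -2.09, SE 0.438, adjusted p = 0.00225), ITGB2 (log2 -1.09) and COL9A2 (log2 -1.20), and positive for COL27A1 (log2 1.27) and EFEMP1 (log2 1.08). Between the untreated lines 46 of 77 were called (59.7%, beside 38.4% of all genes tested), 31 higher and 15 lower in UWB1.289, with LOXL4, FERMT1 and ITGB2 at the upper end (log2 7.04, 6.97 and 6.36) and COL23A1, COL2A1 and FBN2 at the lower end. COL23A1 and COL2A1 had no count in UWB1.289 with DMSO against 139 and 94 in OVCAR3 with DMSO, and FBN2 was lower by a fitted log2 of -4.49 (adjusted p = 2.57e-17).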

How the data were processed

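Gene expression was measured by 3′ tag sequencing (QuantSeq) in 16 libraries, 4 for each line with DMSO or olaparib. The deposited table holds raw counts per gene, which the authors made from trimmed single-end reads aligned with STAR 2.7.9a to hg38 (GRCh38) and counted with featureCounts 2.0.0 on GENCODE 38, and replicates were not pooled. The handling of strand, multiple matches and overlapping genes is not given in the sources used here. Of 59428 genes 29329 had a count. Groups and replicate numbers came from the sample titles. The 4 libraries of a group are replicates by their labels, and p-values measure the spread between these libraries, which may be partly technical. Of 24 pairs of libraries within a group none held identical values.

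Counts were scaled by trimmed mean of M values (TMM), filtered with filterByExpr and tested over all genes with edgeR 4.0.16 (quasi-likelihood F test, Benjamini-Hochberg adjustment) in R 4.3.3. A gene was called when its adjusted p was below 0.1, its change exceeded 2-fold and its normalized count averaged over 10. Each olaparib effect and the line difference was fitted on its own 8 libraries, and the interaction on 16. The scripts were tested on simulated counts. Members, lists and motifs were chosen with earlier results of these data known. The text gives every library for members called with olaparib or in the interaction and for the 6 largest line differences in each direction, and names other matrix genes only where called in these ways or among the 3 largest line differences in each direction. For members with at most 20 counts in a group the pooled ratio is given with its exact binomial 95% interval, and a count of 0 was bounded by 3 counts over the group. Intervals of log2 values are 1.96 SE on either side.

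Same-numbered libraries of UWB1.289 deviated together from their group means (correlations of 0.135 to 0.247 over 9209 genes), so the numbers in the titles were taken as pairs there. The range was 0.0545 to 0.187 in OVCAR3 and -0.00662 to 0.0312 between the lines, where the numbers were not taken as pairs. Alternatives were DESeq2 1.42.0, run without filterByExpr, its size factors in edgeR, no filter on low counts in edgeR, other thresholds, the replicate block, 1 fit of all 16 libraries and leaving out each library. Coordinates are from GENCODE 44 and promoter windows from RefSeq (GRCh38.p14), which held 35 of the 47 members.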

Additional observations from a re-analysis of the deposited data

Results flagged for a closer look

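In 8 of 156 sets of 4 libraries, made of 1 member in 1 group, a single library stood apart from the other three by more than the 95% critical value of Dixon's ratio, and chance gives this in about 1 of 20 sets. In UWB1.289 with olaparib these were COL4A1, at a normalized count of 372 in replicate 4 against 287 to 301 in the others, and FBN1, at 38.5 in replicate 3 against 50.3 to 50.7. In OVCAR3 with olaparib they were COL18A1 (1223 in replicate 4 against 1033 to 1063), COL6A2 (40.3 in replicate 1 against 50.8 to 52.6), LAMC1 (1294 in replicate 2 against 1057 to 1097) and AGRN (91.7 in replicate 1 against 39.5 to 48.0). ITGA3 was at 431 in replicate 2 of OVCAR3 with DMSO against 283 to 306, and ITGB6 at 316 in replicate 1 of UWB1.289 with DMSO against 379 to 390.2. The 8 sets fell on 8 members, and no library had more than 2 of them.

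The olaparib effect differed between the lines for 7 members in the interaction test, each by the effect in UWB1.289 minus that in OVCAR3 on the log2 scale. The difference was -2.70 for ITGB3, -2.37 for FN1, -2.32 for NID1, -1.75 for ITGA5, -1.36 for COL7A1, -1.19 for THBS1 and -1.07 for ITGA3. The cell line, its BRCA1 status, its dose and its medium vary together in these differences and cannot be told apart.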

How the results depend on the processing

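The number of members called with olaparib was 10 in OVCAR3 and 2 in UWB1.289, with 24 between the untreated lines and 7 in the interaction. With the fold threshold removed these became 28, 16, 39 and 11. Leaving out 1 library at a time gave 10 to 13 in OVCAR3, 0 to 3 in UWB1.289, 24 to 25 between the lines and 5 to 9 in the interaction. In UWB1.289 the count was 0 without DMSO replicate 3, where THBS1 and COL1A2 fell just short of 2-fold. It was 1 without olaparib replicate 4, where THBS1 fell short and COL1A2 stayed called. Without olaparib replicate 1 COL1A2 fell short and ITGA2 was called, so the count stayed at 2. With the replicate block the counts were 10, 2, 24 and 7, and the members past the adjusted p in UWB1.289 rose from 16 to 20, while in OVCAR3 and between the lines the libraries share only a number. Every other alternative stayed within 1.5 times of these counts, with LAMA4 added as lower in OVCAR3 when all 16 libraries were fitted together, and as a positive difference in the interaction with DESeq2 or without the low-count filter. Of 94 results for single members followed under the alternatives, 75 kept their call under each, 19 lost it under at least 1, and 0 changed direction. The passes lost under 6 or more alternatives were the ITGB6 and COL7A1 differences in the interaction, LOX in both lines, ITGA6, FBN1, COL4A5 and LAMB2 in OVCAR3, and ITGA5 between the lines. DESeq2 was run without the low-count filter, so a loss with it is not due to the tool alone. In edgeR without that filter the OVCAR3 passes of ITGA6, LAMB2, LOX, FBN1 and COL4A5 were lost too (adjusted p = 0.109, 0.112, 0.128, 0.157 and 0.133). Totals of 5599571 to 7730228 counts bound what could be seen: COL3A1, COL5A1 and LUM had no count, for which cells and counting cannot be told apart. COL6A3 and COL17A1 were below the filter in every comparison of the main fits. COL17A1 was called with olaparib in OVCAR3 when any 1 of the OVCAR3 DMSO libraries was left out.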
